A study of Homo sapiens with 14 samples.

Results

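Keratins are the intermediate filament proteins of epithelial cells, and a filament is built from pairs of 1 type I and 1 type II keratin, so every epithelial cell makes members of both types. Which pairs it makes marks the kind of epithelium. In stratified squamous epithelium, such as that of the oesophagus, the basal layer makes KRT5 with KRT14 and KRT15, and wounded or fast-dividing layers make KRT6A with KRT16 and KRT17. Simple epithelium, such as that of glands, makes KRT8 with KRT18 and KRT19. Squamous carcinoma cells often make keratins of all 3 kinds.

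The 10 keratin genes described here, KRT5, KRT6A, KRT8, KRT14, KRT15, KRT16, KRT17, KRT18, KRT19 and KRT80, were taken by gene name from the 63677 genes listed in each of 2 expression tables. RNA sequencing was done on KYSE510, an established human oesophageal squamous carcinoma line, collected 48 h after small interfering RNAs (siRNAs) had been delivered by lipid transfection. In the EZH2 series the groups were siEZH2-1 and siEZH2-2, both against the Polycomb histone methyltransferase EZH2, and siNC, the negative control siRNA. In the LAT1 series they were siLAT1-2 and siLAT1-3, both against the amino acid transporter LAT1 (gene SLC7A5), and a separate siNC. Each of the 6 groups had 2 libraries. All libraries are labelled as 1 line, so by their labels the groups stand for 1 tumour's cells. An siRNA lowers a transcript without removing it.

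Values are FPKM, a count of sequenced fragments divided by transcript length and by library depth, so that levels can be compared between genes. Each table was fitted alone with limma on log2(FPKM + 1), for genes that averaged 1 FPKM or more across its 6 libraries, and a gene was called at an adjusted p (Benjamini-Hochberg over all genes tested, two-sided) under 0.05. Log2 changes below are on that scale, which understates changes of low genes, and they run siRNA minus siNC. This filter kept 9 of 10 keratins in the EZH2 series, where KRT19 was too low, and 10 of 10 in the LAT1 series. The labels do not state whether both libraries of a group are from different cultures; the p-values then cover library-to-library spread alone, possibly a technical one. In bulk RNA, fewer cells making a keratin and less RNA per cell cannot be told apart.

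The depth estimated from the steps of low values was 21.3 to 27.4 M reads per library in the EZH2 series and 12.9 to 16.7 M reads in the LAT1 series. The log2 change of EZH2 was -1.19 with siEZH2-1 and -1.32 with siEZH2-2, and that of SLC7A5 -2.29 with siLAT1-2 and -1.93 with siLAT1-3, all called by limma. SLC7A5 was also called lower with siEZH2-1 (-2.0) and siEZH2-2 (-0.35). All 8 genes listed as squamous markers reached 1 FPKM in both tables: TP63, SOX2, KRT5, KRT14, DSG3, PERP, CDH1 and EPCAM. The list thus holds KRT5 and KRT14 themselves, and CDH1 and EPCAM are not specific to squamous epithelium. Summed per library, the 8 genes had 739 to 820 FPKM (EZH2 series) and 855 to 894 FPKM (LAT1 series). EPCAM alone averaged 124 FPKM (EZH2 series) and 171 FPKM (LAT1 series), so these sums do not measure squamous identity alone. Of 6 glandular markers 0 reached 1 FPKM, of 4 immune markers 0, and of 6 mesenchymal markers 1 (COL1A1, at means of 1.23 and 2.0 FPKM over the EZH2 and LAT1 series). Of 4 endothelial markers, CDH5 reached 1 FPKM in the LAT1 series (1.02) and 0 did in the EZH2 series.

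The basal type II keratin KRT5 and the simple type II keratin KRT8 were the most abundant keratins in every library. Together they made 75.4% to 81.4% of the summed level of the 10 genes, which was 963 to 1218 FPKM per library, or 0.389% to 0.463% of the FPKM of all genes. KRT5 ranked between 38 and 51 among all genes of a library and KRT8 between 52 and 71. Since the keratin pool of these cells was mostly these transcripts, the 250 bases before the RefSeq start of each are shown (GRCh38.p14, minus strand, 5′ to 3′). Of the 10 genes, these 2 had a window in the RefSeq table. The levels are per gene and do not show which start these cells used, so the abundant RNA may begin elsewhere.
KRT5, chr12:52520395-52520644: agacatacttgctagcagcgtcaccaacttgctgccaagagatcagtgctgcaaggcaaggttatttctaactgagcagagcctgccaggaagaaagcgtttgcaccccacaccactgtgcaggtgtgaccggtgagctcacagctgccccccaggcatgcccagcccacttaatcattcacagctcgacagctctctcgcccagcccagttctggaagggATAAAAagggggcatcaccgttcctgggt
KRT8, chr12:52926470-52926719: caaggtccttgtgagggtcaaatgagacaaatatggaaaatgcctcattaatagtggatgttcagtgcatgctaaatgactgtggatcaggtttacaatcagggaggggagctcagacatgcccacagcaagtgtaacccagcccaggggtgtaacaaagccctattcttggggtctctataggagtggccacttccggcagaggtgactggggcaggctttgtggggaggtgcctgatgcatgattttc
The capitals mark ATAAAA, a variant of the TATA box that was chosen after the window had been read; it starts 29 bases before the gene start, and 15.2% of the 27305 windows of this length hold it on either strand. It shares letters with TATAAA, so the searches overlap. TATAAA (in 11.1% of windows), the AP-2 motif GCCNNNGGC (19.7%), the AP-1 motif TGANTCA (6.60%) and the Sp1 box GGGCGG (42.3%) were searched on both strands, and neither window held any of these letters.

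**Figure D1:**
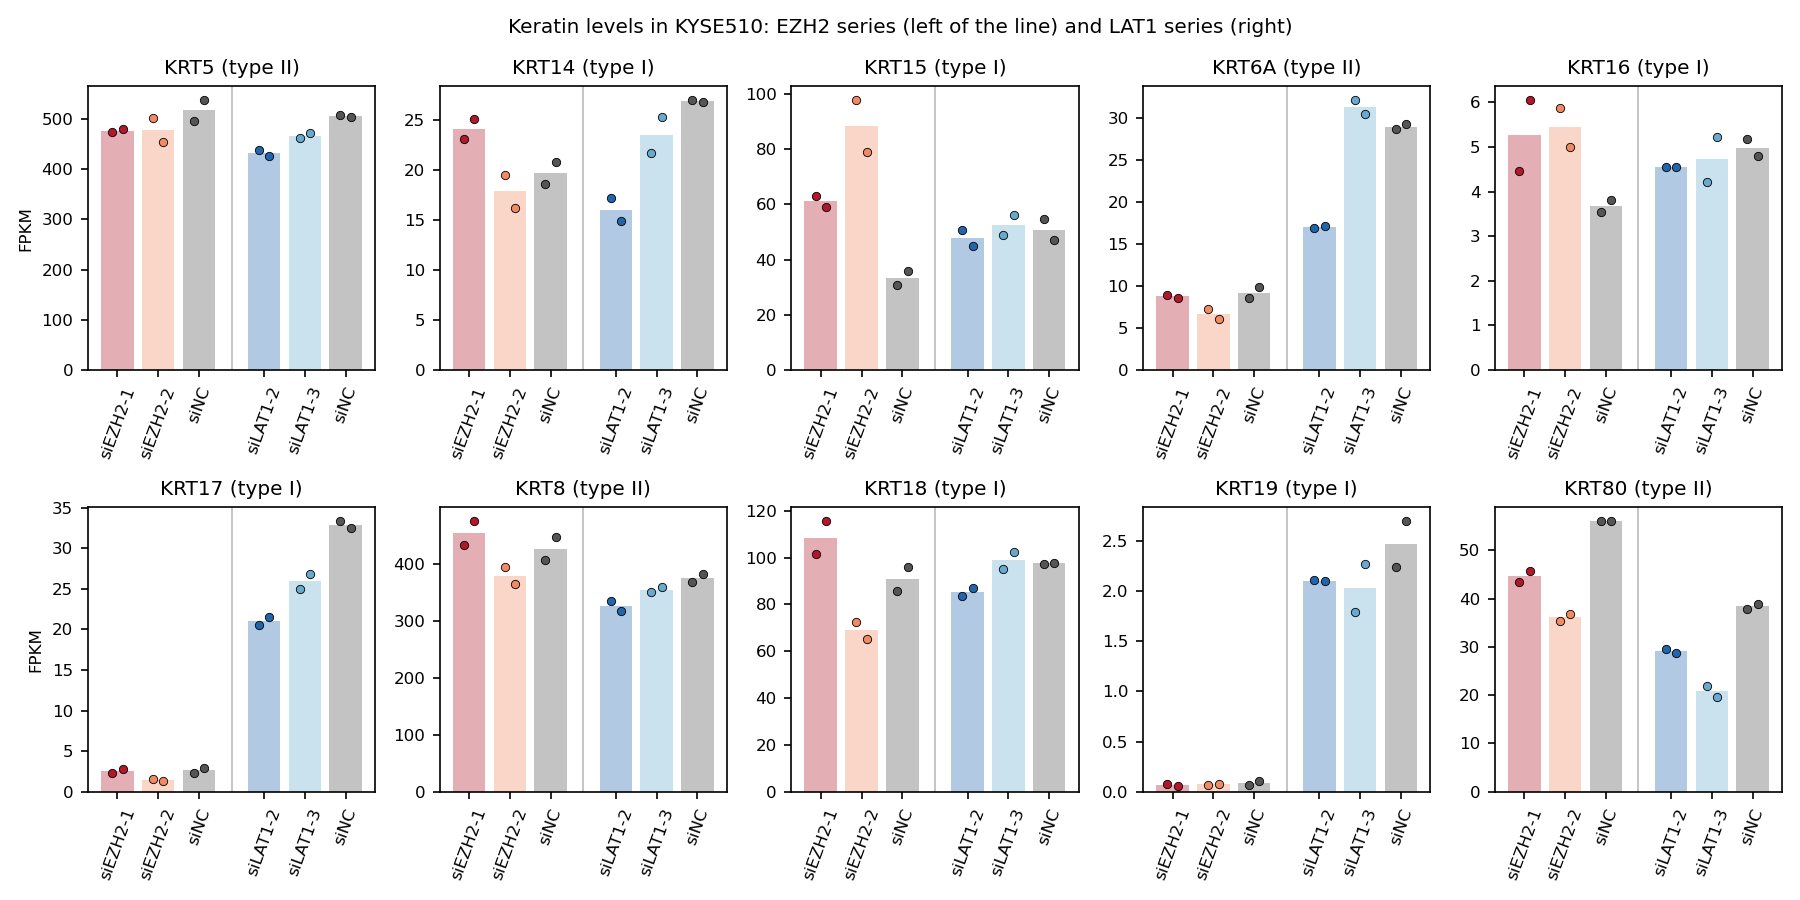
Level of each of the 10 keratins in FPKM (y axes, each on its own scale from 0) in the 6 groups; bars are means and points the 2 libraries of a group. KRT15 is higher with both EZH2 siRNAs than in siNC, KRT80 is lower than siNC with all 4 siRNAs, and KRT6A is low with siLAT1-2 but not with siLAT1-3.

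KRT15, the type I keratin of basal cells (ENSG00000171346, chromosome 17), was the keratin with the largest change after EZH2 knockdown. It had 63.07 and 59.06 FPKM with siEZH2-1 and 97.91 and 78.83 FPKM with siEZH2-2, against 30.83 and 35.94 FPKM in siNC. Every library of either siRNA was above both siNC libraries, and the siEZH2-2 libraries were above the siEZH2-1 libraries. The mean level was 183% of siNC with siEZH2-1 and 265% with siEZH2-2. In limma the log2 change was 0.86 (SE 0.116, adjusted p = 0.00352) with siEZH2-1 and 1.37 (SE 0.116, adjusted p = 6.56e-04) with siEZH2-2, and both calls held under every alternative tried. The step between the siRNAs, 0.52 for siEZH2-2 minus siEZH2-1 (limma adjusted p = 0.0299), lost its call without siEZH2-1 replicate 1 (0.0804), siEZH2-1 replicate 2 (0.141) or siEZH2-2 replicate 1 (0.0798), and without a filter on low values (0.155).

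KRT15 was not called in the LAT1 series. Its levels were 50.82 and 45.02 FPKM with siLAT1-2, 48.72 and 56.14 with siLAT1-3, and 54.55 and 47.18 in siNC. The 3 groups overlapped. The 95% interval of the log2 change ran from -0.31 to 0.14 with siLAT1-2 and from -0.18 to 0.27 with siLAT1-3, so a change as large as that with siEZH2-1 lay outside both intervals.

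KRT5 (ENSG00000186081, chromosome 12), the type II partner in basal cells, moved little in either series. It had 472.65 and 479.91 FPKM with siEZH2-1 and 500.83 and 452.56 with siEZH2-2, against 494.31 and 537.92 in siNC. The siEZH2-2 and siNC libraries overlapped, and the interval with siEZH2-2 was -0.28 to 0.05 on the log2 scale. With LAT1 knockdown it had 437.35 and 425.22 FPKM with siLAT1-2 and 461.62 and 470.77 with siLAT1-3, against 507.93 and 502.39 in siNC, without overlap between the groups. These amounted to limma changes of -0.23 with siLAT1-2 (adjusted p = 0.00125) and -0.12 with siLAT1-3 (adjusted p = 0.0203). These small changes depended on the scaling: after quantile normalization the calls were lost with siLAT1-2 (0.447) and siLAT1-3 (0.172), while KRT5 was then called lower with siEZH2-1 (-0.17, 0.00813) and siEZH2-2 (-0.13, 0.0180). The siLAT1-3 call was also lost without siLAT1-3 replicate 1 (0.0927), siNC replicate 1 (0.124) or siNC replicate 2 (0.0886), and without the filter (0.124).

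KRT14 (ENSG00000186847, chromosome 17), the usual type I partner of KRT5, was a minor transcript in this line, at 14.88 to 27 FPKM. It fell with siLAT1-2, with 17.16 and 14.88 FPKM, against 27 and 26.72 FPKM in siNC of that series; siLAT1-3 lay between them at 21.7 and 25.3 FPKM. Its limma change was -0.71 with siLAT1-2 (SE 0.0842, adjusted p = 0.00110) and -0.19 with siLAT1-3 (interval -0.39 to 0.01, adjusted p = 0.136). The difference between these siRNAs was itself called, at 0.52 for siLAT1-3 minus siLAT1-2 (adjusted p = 0.00518), though not without the filter (0.0539). In the EZH2 series KRT14 had 23.04 and 25.05 FPKM with siEZH2-1 and 19.51 and 16.19 with siEZH2-2, against 18.6 and 20.74 in siNC. Neither siRNA was called against siNC (0.28, adjusted p = 0.0856, and -0.14, adjusted p = 0.364). The siRNAs differed by -0.41 for siEZH2-2 minus siEZH2-1 (adjusted p = 0.0383), a call lost without siEZH2-1 replicate 1 (0.0849), siEZH2-1 replicate 2 (0.185) or siEZH2-2 replicate 2 (0.144), and without the filter (0.165). The siEZH2-1 change was called without siEZH2-2 replicate 1 (0.0466) or replicate 2 (0.0470).

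Of the stress keratins, KRT6A (ENSG00000205420, chromosome 12), the type II member induced in wounded epithelium, had the largest difference between the LAT1 siRNAs of the 10 genes. It had 16.86 and 17.09 FPKM with siLAT1-2 and 32.18 and 30.51 FPKM with siLAT1-3, against 28.62 and 29.26 FPKM in siNC. The siLAT1-2 libraries were far below siNC and the siLAT1-3 libraries slightly above it. With siLAT1-2 the limma change was -0.74 (SE 0.0373, adjusted p = 3.76e-05) and with siLAT1-3 it was 0.11 (interval 0.02 to 0.20, adjusted p = 0.0632). The siLAT1-3 value was called when genes under 5 FPKM were left out (0.0461). The difference, siLAT1-3 minus siLAT1-2, was 0.85 (SE 0.0373, adjusted p = 2.73e-05).

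In the EZH2 series KRT6A was lower in level, at 8.99 and 8.53 FPKM with siEZH2-1 and 7.32 and 6.14 with siEZH2-2, against 8.52 and 9.84 in siNC. The siEZH2-1 libraries overlapped siNC and the siEZH2-2 libraries lay below it. The change with siEZH2-2 was -0.40 (SE 0.0999, limma adjusted p = 0.0301), and with siEZH2-1 it was -0.06 (interval -0.30 to 0.18). The siEZH2-2 call was lost without siEZH2-2 replicate 2 (0.111) or siNC replicate 2 (0.129) and without the filter (0.132). The difference between these siRNAs was not called (-0.34, adjusted p = 0.0653), except without siEZH2-2 replicate 1 (-0.45, 0.0482).

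KRT17 (ENSG00000128422, chromosome 17), a type I stress keratin, fell with both LAT1 siRNAs. It had 20.54 and 21.47 FPKM with siLAT1-2 and 25.00 and 26.86 with siLAT1-3, against 33.36 and 32.45 in siNC, and the 3 groups did not overlap. The limma change was -0.62 with siLAT1-2 (SE 0.0446, adjusted p = 1.24e-04) and -0.33 with siLAT1-3 (adjusted p = 0.00203), and the difference between the siRNAs was called too (0.29, adjusted p = 0.00433). In the EZH2 series the gene was near the limit of the filter, at 2.27 and 2.73 FPKM with siEZH2-1 and 1.56 and 1.37 with siEZH2-2, against 2.34 and 2.93 in siNC. The siEZH2-2 libraries were below all the others. That change was -0.56 (SE 0.117, limma adjusted p = 0.0166) and the one with siEZH2-1 -0.05 (interval -0.33 to 0.23); the siRNAs differed by -0.50 (adjusted p = 0.0335). The siEZH2-2 call was lost without siEZH2-2 replicate 2 (0.0659), without siNC replicate 2 (0.0812) and without the filter (0.0940). The call between the siRNAs was lost without siEZH2-1 replicate 1 (0.0600), siEZH2-1 replicate 2 (0.173), siEZH2-2 replicate 1 (0.0652) or siEZH2-2 replicate 2 (0.140), and without the filter (0.147).

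KRT16 (ENSG00000186832, chromosome 17), the type I keratin that usually goes with KRT6A, was higher after EZH2 knockdown by a margin close to the threshold. It had 4.45 and 6.06 FPKM with siEZH2-1 and 5.88 and 4.99 with siEZH2-2, against 3.54 and 3.82 in siNC. The 4 knockdown libraries were above both siNC libraries. The change was called for the mean of both siRNAs (0.43, SE 0.117, limma adjusted p = 0.0345) but for neither alone (0.41, adjusted p = 0.0673, and 0.46, adjusted p = 0.0518). The mean's call was lost without siEZH2-1 replicate 2 (0.0525), siEZH2-2 replicate 1 (0.0735), siNC replicate 1 (0.174) or siNC replicate 2 (0.0881), and under quantile normalization (0.0567), no filter (0.157) and both siRNAs pooled as 1 group (0.0675). Alone, siEZH2-1 was called without its replicate 1 (0.0267), and siEZH2-2 at a pseudocount of 0.1 FPKM (0.0490) and without siEZH2-1 replicate 1 (0.0246) or replicate 2 (0.0252). KRT16 in the LAT1 series had 4.55 and 4.55 FPKM with siLAT1-2, 4.22 and 5.23 with siLAT1-3, and 5.17 and 4.8 in siNC, and no comparison called it. Per library, the ratio of KRT6A to KRT16 levels was 3.71 and 3.76 with siLAT1-2 and 7.63 and 5.83 with siLAT1-3, against 5.54 and 6.10 in siNC.

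Among the simple-epithelial keratins, KRT18 (ENSG00000111057, chromosome 12), the type I partner of KRT8, separated the EZH2 siRNAs. It had 101.37 and 115.6 FPKM with siEZH2-1 and 72.43 and 65.38 FPKM with siEZH2-2, against 85.89 and 95.81 FPKM in siNC. The siEZH2-1 libraries were above siNC and the siEZH2-2 libraries below it. In limma the difference between the siRNAs was called, at -0.65 for siEZH2-2 minus siEZH2-1 (SE 0.0904, interval -0.86 to -0.43, adjusted p = 0.00588; 0.0562 without the filter). Against siNC the change was 0.25 with siEZH2-1 (interval 0.04 to 0.47, adjusted p = 0.0829) and -0.39 with siEZH2-2 (SE 0.0904, adjusted p = 0.0222). The siEZH2-2 call was lost without siEZH2-2 replicate 2 (0.0889), siNC replicate 2 (0.101) or the filter (0.120).

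After LAT1 knockdown KRT18 had 83.68 and 87.09 FPKM with siLAT1-2 and 95.31 and 102.54 with siLAT1-3, against 97.36 and 97.88 in siNC. The siLAT1-2 libraries lay below siNC, while siLAT1-3 lay on both sides of it. In limma it changed by -0.19 with siLAT1-2 (SE 0.0405, adjusted p = 0.0120) and 0.02 with siLAT1-3 (interval -0.08 to 0.11), and siLAT1-3 minus siLAT1-2 was 0.21 (adjusted p = 0.0108). The siLAT1-2 call was lost without siLAT1-2 replicate 1 (0.0637), siNC replicate 1 (0.0622), siNC replicate 2 (0.0689) or the filter (0.0721), and the call between the siRNAs without siLAT1-2 replicate 1 (0.0579) or the filter (0.0684).

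KRT8 (ENSG00000170421, chromosome 12) had 433.74 and 475.32 FPKM with siEZH2-1 and 394.59 and 364.66 with siEZH2-2, against 406.59 and 446.56 in siNC. It was not called with either siRNA (0.09, and -0.17 with an interval of -0.35 to 0.02), but after quantile normalization it was called lower with siEZH2-2 (-0.23, limma adjusted p = 0.00587) and between the siRNAs (-0.24, 0.00702). With LAT1 knockdown it had 334.11 and 316.92 FPKM with siLAT1-2 and 350.7 and 359 with siLAT1-3, against 367.87 and 381.67 in siNC, and the groups did not overlap. Its limma change was -0.20 with siLAT1-2 (adjusted p = 0.00581; 0.0502 without siNC replicate 2 and 0.0531 without the filter) and -0.08 with siLAT1-3 (adjusted p = 0.144). The siLAT1 siRNAs differed by 0.12 (adjusted p = 0.0445), a call lost under quantile normalization (0.163) and no filter (0.197), and without siLAT1-2 replicate 2 (0.172), siLAT1-3 replicate 1 (0.0904), siLAT1-3 replicate 2 (0.171), siNC replicate 1 (0.0718) or siNC replicate 2 (0.0723).

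The ratio of KRT8 to KRT18 levels, which pair in simple-epithelial filaments, set the groups of the EZH2 series apart. KRT8 over KRT18 was 4.28 and 4.11 with siEZH2-1 and 5.45 and 5.58 with siEZH2-2, against 4.73 and 4.66 in siNC. The 3 groups did not overlap; the range in the LAT1 series was 3.50 to 3.99. KRT19 (ENSG00000171345, chromosome 17), a type I keratin of simple epithelium, was nearly absent from the EZH2 series, with 0.08 and 0.06 FPKM with siEZH2-1, 0.07 and 0.08 with siEZH2-2, and 0.07 and 0.11 in siNC. It had more in the LAT1 series, 2.11 and 2.1 FPKM with siLAT1-2 and 1.79 and 2.27 with siLAT1-3, against 2.24 and 2.7 in siNC, where it was not called (mean of both siRNAs -0.18, interval -0.40 to 0.05, limma adjusted p = 0.191).

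KRT80 (ENSG00000167767, chromosome 12), a type II keratin found in many epithelia and linked to differentiation, fell with all 4 siRNAs. It had 43.54 and 45.74 FPKM with siEZH2-1 and 35.38 and 36.84 FPKM with siEZH2-2, against 56.07 and 56.09 FPKM in siNC. In the LAT1 series it had 29.47 and 28.69 FPKM with siLAT1-2 and 21.98 and 19.68 FPKM with siLAT1-3, against 37.89 and 38.88 FPKM in siNC. No siRNA group overlapped its siNC or the other siRNA of its series. Its limma change was -0.32 with siEZH2-1 (SE 0.0524, adjusted p = 0.00671), -0.62 with siEZH2-2 (adjusted p = 6.41e-04), -0.39 with siLAT1-2 (adjusted p = 0.00192) and -0.85 with siLAT1-3 (interval -0.98 to -0.73, adjusted p = 7.47e-05), and these 4 calls held under every alternative tried. Of 10804 genes tested in both tables, 145 (1.34%) were called lower with all 4 siRNAs; KRT80 was the 1 keratin among them, and the siRNAs of a series share their siNC libraries.

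The siRNAs to a target differed in how far they lowered KRT80. The level was 79.6% of siNC with siEZH2-1 and 64.4% with siEZH2-2, and 75.8% with siLAT1-2 and 54.3% with siLAT1-3. The differences were called by limma, at -0.30 for siEZH2-2 minus siEZH2-1 (adjusted p = 0.0132) and -0.46 for siLAT1-3 minus siLAT1-2 (adjusted p = 0.00115). The step between the EZH2 siRNAs was not called without siEZH2-1 replicate 2 (0.101) or siEZH2-2 replicate 1 (0.0606).

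**Figure D2:**
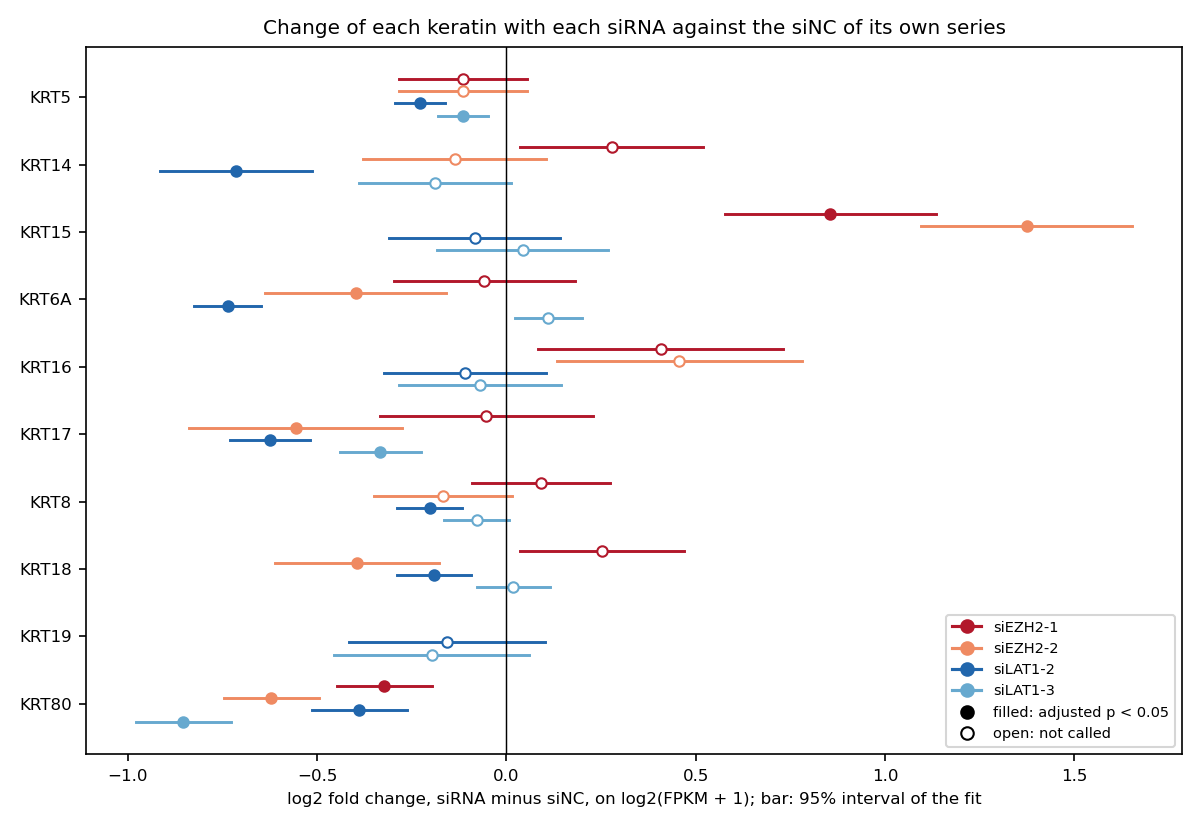
Log2 change against siNC on log2(FPKM + 1) for each keratin (y axis) with each of the 4 siRNAs; lines are 95% intervals from limma, filled points were called and open points were not. KRT15 stands at 0.86 and 1.37 with the EZH2 siRNAs and near 0 with the LAT1 siRNAs, and the siLAT1-2 points of KRT6A, KRT14 and KRT17 lie below the siLAT1-3 points.

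Counted over the family, siEZH2-1 raised 1 of 9 tested keratins (KRT15; 15.9% of all genes tested were called higher) and lowered 1 (KRT80; 11.4% were called lower). siEZH2-2 raised 1 of 9 (13.9% of all genes) and lowered 4, KRT6A, KRT17, KRT18 and KRT80 (10.9% of all genes). The 5 calls with siEZH2-2 became 2 without siEZH2-2 replicate 2 and 2 without siNC replicate 2. The mean of both siRNAs was called higher for 2 and lower for 1 (17.0% and 13.0% of all genes). Between the EZH2 siRNAs, siEZH2-2 was higher for 1 keratin (7.40% of all genes) and lower for 4 (8.86%); of these 5 calls, 2 were kept when siEZH2-1 replicate 1 was left out, 1 for siEZH2-1 replicate 2, 2 for siEZH2-2 replicate 1 (where KRT6A was called in addition) and 3 for siEZH2-2 replicate 2. The median log2 change of the 9 keratins was 0.09 with siEZH2-1 and -0.17 with siEZH2-2, beside 0.03 over all tested genes with each.

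In the LAT1 series limma called 0 of 10 keratins higher against siNC, and at an unadjusted p under 0.05 only KRT6A with siLAT1-3 was higher. siLAT1-2 lowered 7 of 10, KRT5, KRT6A, KRT8, KRT14, KRT17, KRT18 and KRT80, where 13.9% of all genes tested were called lower and 18.6% higher. siLAT1-3 lowered 3 of 10, KRT5, KRT17 and KRT80, where 13.6% of all genes were called lower and 17.9% higher. The mean of both siRNAs was called lower for 6 of 10 (15.3% of all genes lower, 19.3% higher), and when both siRNAs were pooled as 1 group of 4 libraries 1 of these, KRT17, was called. Between the siRNAs, siLAT1-3 was higher for 6 keratins (12.4% of all genes) and lower for 1, KRT80 (13.1%). The call of KRT5 among these 6 was lost without the filter (0.147) and without siLAT1-2 replicate 2 (0.107), siLAT1-3 replicate 1 (0.0599), siLAT1-3 replicate 2 (0.117), siNC replicate 1 (0.0634) or siNC replicate 2 (0.0637), and quantile normalization turned its sign (0.11 as reported, -0.04 after it). The median log2 change of the 10 keratins was -0.22 with siLAT1-2 and -0.10 with siLAT1-3, beside 0.02 over all tested genes with each.

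The make-up of the 6 type I members differed between the groups of the EZH2 series, with a larger share of KRT15 and a smaller share of KRT18 in the knockdown libraries. KRT15 made 32.5% and 28.3% of the summed FPKM of the 6 type I members with siEZH2-1 and 49.6% and 47.2% with siEZH2-2, against 21.8% and 22.6% in siNC. KRT18 made 52.2% and 55.4% with siEZH2-1 and 36.7% and 39.2% with siEZH2-2, against 60.8% and 60.1% in siNC. With siEZH2-1 the share of KRT18 was thus below siNC while its level was above it, at 119% of siNC. KRT15 exceeded KRT18 in both siEZH2-2 libraries and in no other library of that series. The summed type II level was 4.94 and 4.84 times the summed type I level with siEZH2-1 and 4.75 and 5.16 times with siEZH2-2, against 6.83 and 6.59 times in siNC. Across the LAT1 series KRT15 made 22.3% to 28.4% and the type II to type I ratio was 4.03 to 4.57. All these sums leave out keratins beyond the 10 genes. In the LAT1 series KRT7 (type II) averaged 83.9 FPKM, KRT13 (type I) 34.7 FPKM and KRT10 (type I) 11.1 FPKM. In the EZH2 series they averaged 0.367, 0.305 and 16.7 FPKM.

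**Figure D3:**
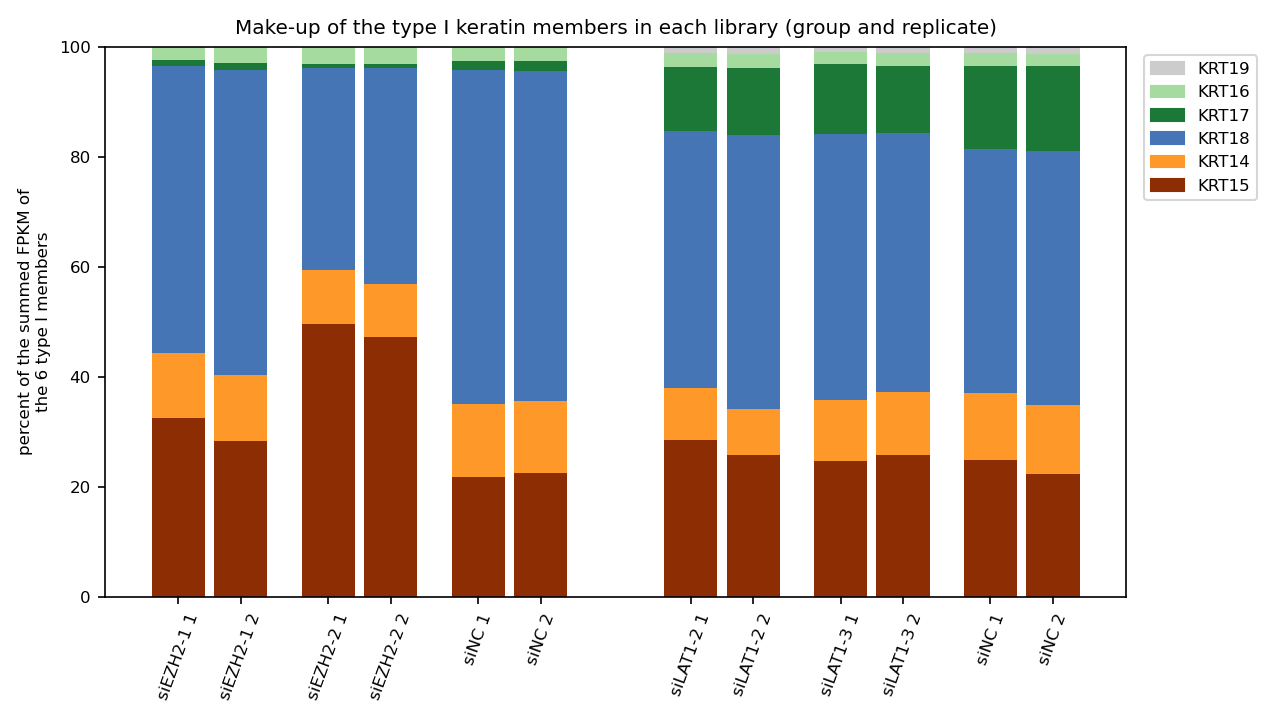
Share of each of the 6 type I keratins in their summed FPKM (percent, y axis) in each of the 12 libraries, by group. KRT15 takes 47.2% and 49.6% with siEZH2-2, 28.3% and 32.5% with siEZH2-1 and 21.8% and 22.6% in siNC of that series, and KRT17 takes a wide band in the LAT1 series and a thin one in the EZH2 series.

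The siNC libraries of the 2 series had different keratin levels, although both are labelled as the same line and control. The tables were normalized separately, so the values are set side by side without a test. KRT17 averaged 32.9 ± 0.643 FPKM in siNC of the LAT1 series and 2.64 ± 0.417 FPKM in siNC of the EZH2 series (SD, n = 2 each). KRT6A averaged 28.9 ± 0.453 FPKM in the LAT1 series' siNC and 9.18 ± 0.933 FPKM in the EZH2 series' siNC, and KRT19 2.47 and 0.0900 FPKM. In contrast KRT5, KRT8, KRT14, KRT16 and KRT18 lay within 0.5 of each other on the log2 scale. KRT15 averaged 50.9 FPKM in the LAT1 series' siNC and 33.4 FPKM in the EZH2 series' siNC (a log2 difference of 0.59), and KRT80 was lower in the LAT1 series' siNC, at 38.4 and 56.1 FPKM. The stress keratins made 4.21% to 5.78% of the 10 genes' summed FPKM in the LAT1 series and 1.22% to 1.42% in the EZH2 series.

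KRT7 and KRT13, outside the 10 genes, also stood apart between the siNC groups. KRT7, a type II keratin of simple epithelium, averaged 93.9 FPKM in siNC of the LAT1 series and 0.455 FPKM in siNC of the EZH2 series, and KRT13, the type I keratin of differentiating oesophageal epithelium, 38.4 and 0.240 FPKM. KRT10, a type I keratin of cornifying epithelium, was at 11.5 and 16.3 FPKM in the same order. Of 12423 genes at 1 FPKM or more in either siNC, 297 (2.39%) were higher in the LAT1 series by at least 2 on the log2 scale and 10 (0.0805%) lower by at least 2, while 63.6% lay within 0.5. KRT7, KRT13 and KRT17 were the 3 keratins past that limit. Estimated depth was lower in the LAT1 series and CDH5 higher (1.02 and 0.0183 FPKM over all 6 libraries); their part in these differences was not tested.

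**Figure D4:**
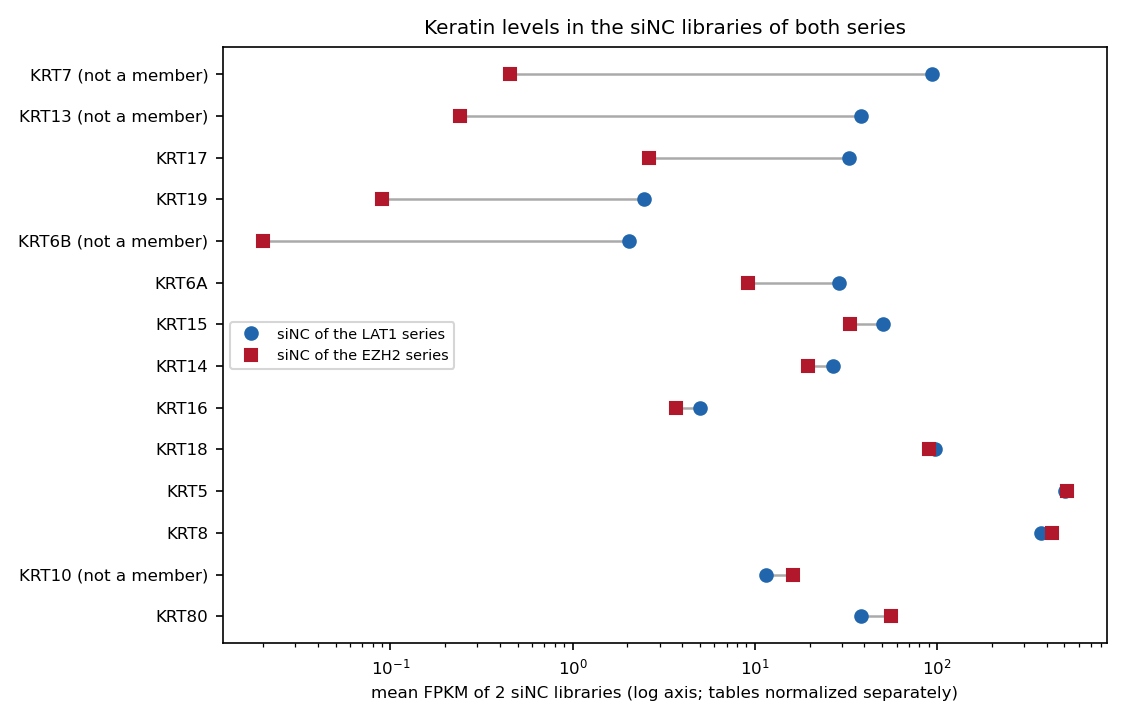
Mean siNC level in FPKM of 14 keratins in the LAT1 series and in the EZH2 series (logarithmic axis, 2 libraries each, tables normalized separately). KRT7, KRT13 and KRT17 lie far apart between the series, at 93.9 and 0.455, 38.4 and 0.240, and 32.9 and 2.64 FPKM, while KRT5 and KRT8 lie close together.

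KRT7 and KRT13, which could be tested in the LAT1 series alone, fell with siLAT1-2. KRT7 had 70.2 and 72.49 FPKM with siLAT1-2 and 89.52 and 83.62 with siLAT1-3, against 92.31 and 95.42 in siNC. In limma KRT7 changed by -0.39 with siLAT1-2 (adjusted p = 6.24e-04) and -0.12 with siLAT1-3 (adjusted p = 0.0698), and the siRNAs differed by 0.27 (adjusted p = 0.00353). KRT13 had 32.43 and 27.77 FPKM with siLAT1-2 and 35.96 and 35 with siLAT1-3, against 38.08 and 38.69 in siNC. Its change was -0.34 with siLAT1-2 (adjusted p = 0.00830) and -0.11 with siLAT1-3 (adjusted p = 0.254). Of the 45 other keratin genes listed, 5 reached a mean of 1 FPKM in either table, and of 140 keratin pseudogenes 2 did. KRT6A and KRT6B, and KRT14, KRT16 and KRT17, are near-identical copies over parts of their length, and KRT8 and KRT18 have many pseudogenes. How reads shared between such copies were counted is not given in the sources used here, so the split among them is uncertain.

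The proteins that bind or anchor keratin filaments changed in both directions. Of 13 such genes, all tested, siEZH2-1 raised 2 and lowered 5 (15.9% and 11.4% of all tested genes) and siEZH2-2 raised 2 and lowered 4 (13.9% and 10.9%). The highest and lowest called with both were EPPK1, a keratin-binding plakin, with mean levels of 2.8 and 3.32 FPKM against 2.02 in siNC (mean log2 change 0.42), and PLEC, the plakin that ties filaments to hemidesmosomes, with 30.5 and 25.5 FPKM against 38.0 (-0.43). siLAT1-2 raised 2 and lowered 3 (18.6% and 13.9% of all tested genes), and siLAT1-3 raised 3 and lowered 6 (17.9% and 13.6%). There the cornified envelope plakin EVPL had 6.37 and 6.16 FPKM against 4.32 in siNC (0.45), and its partner PPL 28.6 and 19.6 FPKM against 33.6 (-0.49). The median log2 change of the mean contrast was -0.14 after EZH2 knockdown and -0.07 after LAT1 knockdown, beside 0.03 and 0.01 over all genes.

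Of 24 transcription factors known to act on keratin genes, 21 were tested after EZH2 knockdown, where 3 rose and 7 fell with siEZH2-1 (beside 15.9% and 11.4% of all genes) and 6 rose and 5 fell with siEZH2-2 (beside 13.9% and 10.9%). STAT3 had mean levels of 22.2 and 21.2 FPKM against 15.9 in siNC (0.42 for the mean of both siRNAs), and TFAP2A, an AP-2 factor active in keratinocytes, 3.94 and 5.01 FPKM against 7.37 (-0.62). Of the same factors 23 were tested after LAT1 knockdown, of which 5 rose and 5 fell with siLAT1-2 (beside 18.6% and 13.9% of all genes) and 7 rose and 6 fell with siLAT1-3 (beside 17.9% and 13.6%). SOX2, a squamous lineage factor, had 11.6 and 10.9 FPKM against 7.79 in siNC (0.48), and TFAP2A 4.71 and 4.73 FPKM against 6.11 (-0.32). TFAP2A was thus called lower with each of the 4 siRNAs, as were 1.34% of the 10804 genes tested in both series. The other AP-2 factor listed, TFAP2C, went the other way and was called higher with each of the 4, as was STAT3. TFAP2C had 20.4 and 19.7 FPKM against 14.7 in siNC of the EZH2 series. In the LAT1 series it had 18.9 and 20.9 FPKM against 16.6 in siNC.

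Of 16 other intermediate filament genes, 5 passed the filter in the EZH2 series and 6 did in the LAT1 series. siEZH2-1 raised 1 and lowered 1 of 5 (all genes, 15.9% and 11.4%), and siEZH2-2 raised 2 and lowered 1 (all genes, 13.9% and 10.9%). The lamin gene LMNB2 had 128 and 121 FPKM against 90.7 in siNC (0.45). siLAT1-2 raised 4 of 6 (all genes, 18.6%), and siLAT1-3 raised 3 and lowered 1 (all genes, 17.9% and 13.6%), with SYNM, a filament protein mostly known from muscle, at 7.10 and 8.80 FPKM against 5.64 in siNC (0.42). VIM, the mesenchymal filament gene, did not reach the filter in either table. Of the 8 genes listed as squamous markers, CDH1 and EPCAM included, the mean of both siRNAs was called higher for 2 and lower for 2 in each series. Over all tested genes, 17.0% were called higher and 13.0% lower after EZH2 knockdown, and 19.3% and 15.3% after LAT1 knockdown. After EZH2 knockdown PERP, a desmosomal p53 target, was called higher (1.45 with siEZH2-1 and 0.28 with siEZH2-2), as was SOX2 (mean 0.28). TP63 (mean -0.30) and CDH1 (mean -0.27) were called lower. Only PERP was called with each siRNA. SOX2 was at -0.05 with siEZH2-1 (not called) and 0.60 with siEZH2-2. TP63 was at -0.40 with siEZH2-1 and -0.19 with siEZH2-2 (not called), and CDH1 at -0.14 with siEZH2-1 (not called) and -0.40 with siEZH2-2. After LAT1 knockdown the markers called higher were PERP (0.90 with siLAT1-2 and 0.85 with siLAT1-3) and SOX2. Those called lower were KRT5 and KRT14, of which KRT14 was not called with siLAT1-3.

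Across the 12 libraries, with each series centred on its own mean, the gene outside the family most like a keratin was found by Pearson correlation of log2(FPKM + 1) among 4466 genes with a centred SD of at least 0.15. These are descriptions of libraries that share groups and siNC, and each is the best of many. The SD limit was set on the candidates alone. KRT5 (0.090) and KRT8 (0.113) themselves had a centred SD below it, so their matches rest on small variation. For the basal keratins they were FXYD3 for KRT5 (r = 0.930), DCAKD for KRT14 (0.934) and CLUAP1 for KRT15 (0.941). For the stress keratins KRT16 and KRT17 they were OSCP1 (0.912) and TMEM120B (0.976). SFN, the 14-3-3 protein of squamous epithelium, was nearest to KRT8 (0.951), FBXO7 to KRT18 (0.975) and the laminin receptor subunit ITGA3 to KRT80 (0.966).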

How the data were processed

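RNA was sequenced from 12 KYSE510 libraries in 2 series of 6. The authors deposited 1 table per series, whose headers name no unit; its values were read as FPKM that the authors had scaled by gene length and library depth before deposit, from column sums and from steps that depend on the gene. The submitters' processing notes name the tools STAR, SEACR, Picard, Trim Galore, Bowtie and Bowtie2 and the builds hg38 and hg19, with no role. The counting program, gene lengths and strand setting are not given in the sources used here. In the LAT1 series both siNC titles carry the same replicate number, so the descriptions' numbers were followed. The 2 CUT&Tag samples were not analysed here.

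Each table was fitted alone with limma 3.58.1 (limma-trend, R 4.3.3), on log2(FPKM + 1), with 11585 and 11678 genes at a mean of at least 1 FPKM; 1 coefficient per group was fitted and 8 contrasts were made. The smallest p that permuting 4 knockdown and 2 siNC libraries exactly can give is 0.0667. Contrasts of 2 with 2 libraries, which most calls rest on, have fewer arrangements, so their smallest such p is larger. Depth is an estimate from the steps of short RNA genes. Errors cover the spread between libraries only. The members and gene lists were chosen with earlier results of these data known. Beyond the members, list genes were named as the highest and lowest mean change among those called with both siRNAs in 1 direction, and other keratins at a mean of at least 10 FPKM or pseudogenes at 1 FPKM. TFAP2C was named in addition, as the other AP-2 factor listed. Each library was left out in turn, and other settings were a replicate block, pooled siRNAs, a 5 FPKM filter or none, quantile normalization and a smaller pseudocount (0.1). The fit was also run on simulated data with independent noise in each library. Such data cannot show whether 2 libraries that may be technical repeats give valid p-values. Sequences are from RefSeq (GRCh38.p14), matched for 2 of the 10 genes. The gene most like KRT6A is not reported here.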

Additional observations from a re-analysis of the deposited data

How the results depend on the processing

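Of 839 values of single keratins under an alternative, 725 kept their direction and side of the threshold, 75 lost a call, 16 gained one and 23 changed sign. The number of keratins called moved by over 1.5 times under quantile normalization for the mean of the EZH2 siRNAs (5, against 3), with no filter for siEZH2-2 (2, against 5), the step between the EZH2 siRNAs (1, against 5) and the step between the LAT1 siRNAs (3, against 7), and with both LAT1 siRNAs pooled (1, against 6). No filter adds low genes to both the fit and the adjustment, and pooling counts the difference between siRNAs as spread. Why the counts moved under no filter, pooling or quantile normalization was not tested. With 1 library left out, the count was 2 to 6 for siEZH2-2 and 1 to 5 for the step between the EZH2 siRNAs, where a group left with 1 library is assumed to vary like the others. For the rest, counts with 1 library left out were 2 to 3 (mean of the EZH2 siRNAs, siEZH2-1 and siLAT1-3), 5 to 7 (mean of the LAT1 siRNAs and siLAT1-2) and 5 to 6 (step between the LAT1 siRNAs).

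Same-numbered libraries were checked for pairing. In the EZH2 series their deviations correlated at -0.353 (siEZH2-1 with siEZH2-2), 0.355 (siEZH2-1 with siNC) and -0.339 (siEZH2-2 with siNC), so the sign differed between pairs. In the LAT1 series the correlations were 0.0177, 0.0334 and 0.0826. Pairing in an order other than the replicate numbers was not tested, and the block used the numbers as given. With the replicate block, 2 keratins were called between the EZH2 siRNAs (5 without it), 2 for their mean, 2 with siEZH2-1, 4 with siEZH2-2, 6 for the mean of the LAT1 siRNAs, 7 with siLAT1-2, 3 with siLAT1-3 and 6 between them. The calls lost with the block were KRT16 for the mean of the EZH2 siRNAs (limma adjusted p = 0.0621), KRT6A with siEZH2-2 (0.0655), KRT14 (0.0840), KRT15 (0.0630) and KRT17 (0.0615) between the EZH2 siRNAs, and KRT8 between the LAT1 siRNAs (0.0673).

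Signs changed for values near 0. After quantile normalization KRT5 was 0.036 between the EZH2 siRNAs and -0.043 between the LAT1 siRNAs, where it had been called at 0.11. With 1 library left out, 14 uncalled log2 changes crossed 0: for the mean of the EZH2 siRNAs KRT14 (-0.0042 to 0.15), KRT8 (-0.11 to 0.030) and KRT18 (-0.15 to 0.0074); with siEZH2-1 KRT6A (-0.15 to 0.036) and KRT17 (-0.17 to 0.064); between the EZH2 siRNAs KRT5 (-0.074 to 0.072) and KRT16 (-0.14 to 0.24); for KRT15 with the mean of the LAT1 siRNAs (-0.12 to 0.083), siLAT1-2 (-0.19 to 0.019) and siLAT1-3 (-0.060 to 0.15); with siLAT1-3 KRT16 (-0.20 to 0.059) and KRT18 (-0.034 to 0.070); and between the LAT1 siRNAs KRT16 (-0.088 to 0.17) and KRT19 (-0.15 to 0.075). With 2 libraries per group, depth estimated and no stated culture replicates, KRT19 and KRT17 in the EZH2 series rest on the lowest values.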

Other observations

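KRT222, a keratin-like gene named after its values were seen, had a higher mean level with both EZH2 siRNAs. Of the 45 other keratin genes listed, 2 passed the filter in the EZH2 series. The mean level of KRT222 was 1.3 (siEZH2-1) and 1.42 FPKM (siEZH2-2), against 0.565 FPKM in siNC. It thus passed the 1 FPKM filter only through the knockdown libraries. Its mean log2 change was 0.59. Because it was picked by these values, no call or p-value is given for it. The pseudogene KRT8P12, at 2.07 to 4.42 FPKM over all libraries, can be set beside KRT8. In limma it changed by 0.44 with siEZH2-1 (adjusted p = 0.0197), 0.01 with siEZH2-2 (0.970), 0.43 with siLAT1-2 (0.0123) and 0.31 with siLAT1-3 (0.0413), beside 0.09, -0.17, -0.20 and -0.08 for KRT8. For siEZH2-2 minus siEZH2-1 both values were negative, at -0.43 (0.0296) for KRT8P12 and -0.26 (0.0665) for KRT8, and for siLAT1-3 minus siLAT1-2 they were -0.12 (0.389) and 0.12 (0.0445). KRT8P3, at 1.53 to 2.60 FPKM, was not called with any siRNA.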
